A study of Homo sapiens with 12 samples.

Results

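Solute carriers are the proteins of the SLC gene families, which move ions, sugars, amino acids, metals, vitamins, organic acids and other small solutes across cell membranes. The genes described here are all those whose symbol begins with SLC and a family number, apart from 16 that carry amino acids, iron, glucose or lactate and are known from work on ferroptosis and cancer metabolism. They were chosen by symbol alone. The arrays measured 223 of them, out of 238 solute carrier genes and 11963 genes in all, and 15 of the 16 left out. The 223 genes fall into 52 families, of which 29 had 3 or more measured genes and held 194 of the 223. A few genes with such a symbol are not transporters (SLC2A4RG, SLC4A1AP and the long non-coding RNA SLC67A1-AS) and were counted with the rest. Pseudogenes with such a symbol, as in families SLC19 and SLC26, were also counted.

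RCC4 is an established human cell line from a clear cell renal carcinoma, a tumour of the kidney tubule in which the VHL gene is typically lost. YAP (gene YAP1) is a co-activator of transcription that the Hippo kinases hold in check. Erastin is a compound that stops cystine uptake through system xc- and so can kill cells by ferroptosis, a cell death that depends on iron. All cells were reverse transfected, for 2 days, with an siRNA against YAP (siYAP) or a non-targeting one (siNT), and then received 1 µM erastin, or DMSO as the vehicle, for 7 hours. The 4 groups, siYAP with erastin, siYAP with DMSO, siNT with erastin and siNT with DMSO, had 3 arrays each, described as biological triplicates. Every group is the same line, the transfected cells were a culture and not a selected clone, and each level is an average over a culture, in which fewer cells with a transcript and less transcript per cell cannot be told apart.

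In the kidney tubule, solute carriers reclaim bicarbonate, phosphate, sugars, amino acids and organic anions from the filtrate. The sodium-coupled bicarbonate cotransporters of family SLC4 and the sodium-proton exchangers of family SLC9 set the pH of cells and organelles. Family SLC25 spans the inner membrane of mitochondria, families SLC30 and SLC39 move zinc in opposite directions, and family SLC35 brings nucleotide sugars into the Golgi and endoplasmic reticulum. Most plasma membrane carriers of family SLC22 take organic cations, anions or carnitine.

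YAP acts through TEAD factors, which bind GGAATG, and often beside AP-1, which binds TGANTCA. The stretches upstream of the start sites of 6 genes called in both media after YAP was silenced are shown, to set genes that fell beside genes that rose. Each holds the 250 bases before a start site in RefSeq (build GRCh38.p14), 5′ to 3′ on the gene's strand, and capitals mark a match to GGAATG or CATTCC (TEAD, both strands) or to TGANTCA (AP-1, which reads the same on both strands). SLC4A4, SLC9A8 and SLC25A24 fell after silencing and SLC4A8, SLC16A4 and SLC17A3 rose. Those that fell were chosen for a match, and no window of the other 12 genes that fell in both media holds one, SLC9D1, SLC67A2 and SLC12A2 with larger falls in DMSO than SLC25A24 among them. SLC4A8 and SLC16A4 are the largest rises in DMSO, and SLC17A3 was chosen for its match. The 1 window of 5 with a match is shown for SLC4A4, the 1 of 2 with a match for SLC25A24, and the first of 2 for SLC4A8.
SLC4A4, chr4:71235810-71236059, plus strand: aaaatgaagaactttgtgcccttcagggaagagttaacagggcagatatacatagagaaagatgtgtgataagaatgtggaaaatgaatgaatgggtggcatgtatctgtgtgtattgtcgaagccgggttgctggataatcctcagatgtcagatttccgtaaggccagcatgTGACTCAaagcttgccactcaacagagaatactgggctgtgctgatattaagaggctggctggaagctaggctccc
SLC9A8, chr20:49812578-49812827, plus strand: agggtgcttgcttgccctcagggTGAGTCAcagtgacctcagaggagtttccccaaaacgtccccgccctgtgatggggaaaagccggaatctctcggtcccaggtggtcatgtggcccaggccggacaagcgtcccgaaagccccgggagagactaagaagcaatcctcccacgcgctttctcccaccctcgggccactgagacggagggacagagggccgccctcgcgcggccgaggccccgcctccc
SLC25A24, chr1:108192836-108193085, minus strand: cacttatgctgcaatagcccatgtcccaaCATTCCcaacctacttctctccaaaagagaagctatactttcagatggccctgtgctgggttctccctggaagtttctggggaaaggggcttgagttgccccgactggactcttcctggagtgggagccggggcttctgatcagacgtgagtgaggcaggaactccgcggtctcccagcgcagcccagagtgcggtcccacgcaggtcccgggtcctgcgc
SLC4A8, chr12:51424581-51424830, plus strand: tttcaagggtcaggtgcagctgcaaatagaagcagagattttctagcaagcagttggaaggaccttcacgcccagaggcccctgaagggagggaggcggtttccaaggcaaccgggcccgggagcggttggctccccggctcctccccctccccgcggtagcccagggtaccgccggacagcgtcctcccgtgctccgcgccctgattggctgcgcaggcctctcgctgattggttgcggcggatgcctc
SLC16A4, chr1:110391027-110391276, minus strand: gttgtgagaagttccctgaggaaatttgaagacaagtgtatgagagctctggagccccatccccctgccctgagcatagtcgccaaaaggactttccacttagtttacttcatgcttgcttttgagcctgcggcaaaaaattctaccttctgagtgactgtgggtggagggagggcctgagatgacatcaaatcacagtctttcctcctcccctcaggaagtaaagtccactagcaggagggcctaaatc
SLC17A3, chr6:25874244-25874493, minus strand: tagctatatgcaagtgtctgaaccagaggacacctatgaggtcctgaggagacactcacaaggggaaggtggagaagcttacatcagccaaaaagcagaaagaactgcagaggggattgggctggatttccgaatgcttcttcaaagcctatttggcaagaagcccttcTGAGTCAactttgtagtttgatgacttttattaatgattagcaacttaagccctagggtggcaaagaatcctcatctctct
An AP-1 match lies in the SLC4A4, SLC9A8 and SLC17A3 windows and a TEAD match in the SLC25A24 window, while the SLC4A8 and SLC16A4 windows hold neither. Among the 33 genes that rose after silencing in both media, 27 matched a RefSeq entry, with 35 windows, of which 8.57% held the TEAD letters and 5.71% the AP-1 letters. All 15 genes that fell in both media matched, with 23 windows, of which 4.35% held the TEAD letters and 8.70% the AP-1 letters. These shares lie beside 11.9% and 6.62% of 151 windows of the solute carrier genes called in neither medium, and 11.9% and 6.57% of all 35093 RefSeq windows. A match is a run of letters in a short window and says nothing of where a factor binds.

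YAP1 itself, read first as a check on the labels, had log2 levels of 4.18, 4.88 and 4.81 on the siYAP arrays with DMSO, against 8.55, 8.59 and 8.47 on the siNT arrays with DMSO. Under erastin it read 4.68, 6.21 and 4.90 on siYAP arrays, against 8.47, 8.52 and 8.65 on siNT arrays. The siYAP arrays lay below the siNT arrays throughout, and the second siYAP array with erastin kept the highest level among them. The log2 difference was -3.91 (adjusted p = 8.44e-07, limma) in DMSO and -3.28 (adjusted p = 3.74e-06, limma) under erastin.

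Over all probe sets, array medians lay between 6.49 and 6.52 on the log2 scale, and arrays of a group correlated at 0.995 to 0.999. Of 11 renal tubule and clear cell carcinoma markers, 10 were measured, with a median log2 level of 10.4, but LRP2 and CUBN, the endocytic receptors of the proximal tubule, read only 2.85 and 4.55. After silencing 3 of these 10 rose and 2 fell in each medium, beside 33.7% of all genes called in DMSO and 34.9% under erastin. Of all genes with a level at or above the median, 51.7% were called in DMSO and 53.3% under erastin. Markers of endothelial cells (5 of 5 measured), fibroblasts (5 of 5) and immune cells (4 of 6) had median levels of 4.33, 4.61 and 3.95, and none was called in any comparison. The ACTB 3′ probe set minus its 5′ probe set, a sign of RNA length, was 3.54 ± 0.179 in siYAP cells with erastin, 2.59 ± 0.955 in siYAP cells with DMSO, 2.26 ± 0.691 in siNT cells with erastin and 2.68 ± 0.282 in siNT cells with DMSO (log2, SD, n = 3). Its part in the results was not tested. The same measure for GAPDH had means of 0.147 to 0.216 in the 4 groups, with single arrays from 0.0702 to 0.252.

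After YAP was silenced every class of solute carriers held called genes, but the share called among the 223 was below that of all genes. The bicarbonate cotransporter SLC4A4 fell most, 5.62-fold in DMSO, followed by SLC9D1, SLC67A2 and the organellar sodium-proton exchanger SLC9A8, which fell 1.94-fold to 2.08-fold. The bicarbonate exchanger SLC4A8 and the monocarboxylate transporter family member SLC16A4 rose most, 2.44-fold and 2.42-fold. In DMSO 60 of the 223 genes (26.9%) passed an adjusted p of 0.05 with limma, 39 of them higher and 21 lower in siYAP cells, beside 33.7% of all 11963 genes, 18.1% higher and 15.6% lower. A change of at least 2-fold was called for 5 of the 223, beside 2.71% of all genes.

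Under erastin the same comparison called 65 of 223 genes (29.1%), 42 higher and 23 lower, beside 34.9% of all genes, 20% higher and 14.8% lower. At least 2-fold changes numbered 4, beside 2.64% of all genes. Arrays of siYAP and siNT cells did not overlap for 90 of the 223 genes in DMSO and 81 under erastin, beside 45.4% and 45% of all genes. The median log2 difference was 0.02 over the 223 genes and 0.02 over all genes in DMSO, and 0.01 and 0.01 under erastin. Without the second siYAP array with erastin, whose YAP1 level was highest, 63 of 223 were called under erastin.

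Calls were more frequent at higher signal. Of the 89 solute carriers with a mean level at or above the median of all genes (7.26), 46.1% were called in DMSO, beside 51.7% of all genes at that level. Of the 134 below it, 14.2% were called, beside 15.6% of all genes there. In both parts of the scale the solute carriers were called somewhat less often than all genes. By direction, 17.5% of the 223 rose in DMSO beside 18.1% of all genes, and 9.42% fell beside 15.6%. Whether signal accounts for the lower share was not tested.

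**Figure D1:**
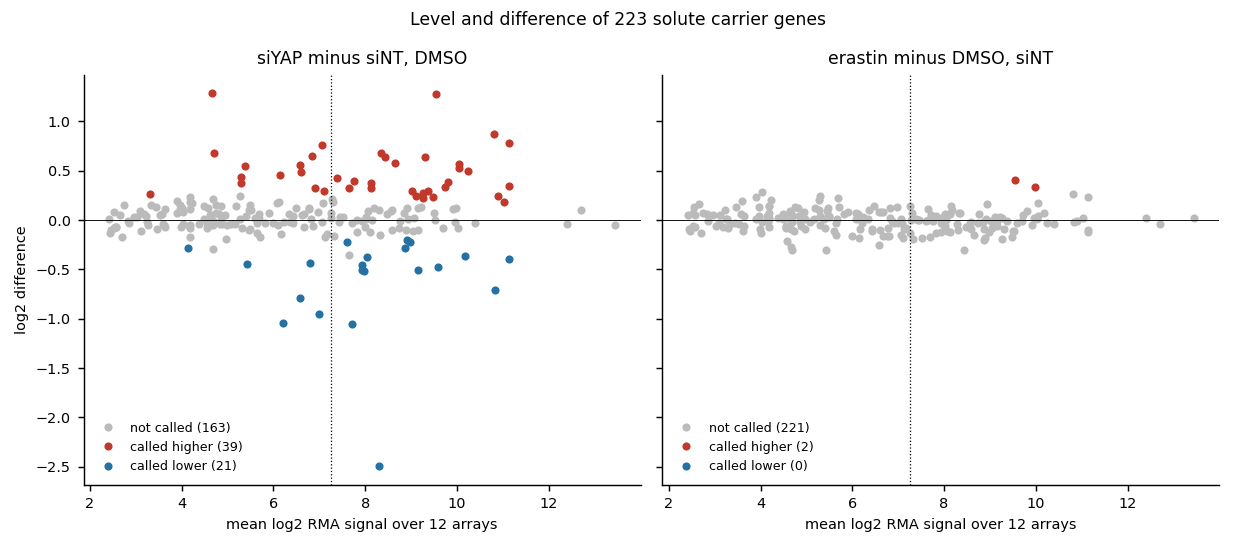
Mean log2 level over 12 arrays (x axis) against the log2 difference (y axis) for 223 solute carrier genes, for siYAP minus siNT in DMSO (left) and erastin minus DMSO in siNT cells (right), with the median level of all genes as a dotted line. Silencing gave 39 genes called higher and 21 called lower, most of them right of the dotted line, while erastin gave 2, SLC16A4 and SLC34A2.

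The 2 silencing comparisons used separate arrays. In both, 33 of 223 genes rose (14.8%) and 15 fell (6.73%), beside 14.6% and 11.6% of all genes, and none was called in opposite directions. The 48 shared genes are 80.0% of the 60 called in DMSO and 73.8% of the 65 called under erastin, beside 77.9% and 75.2% for all genes, and 12 and 17 genes were called in DMSO alone and under erastin alone. All 6 siYAP arrays lay above all 6 siNT arrays for 35 of the 223 genes, beside 15.8% of all genes, and below them for 18, beside 12.7% of all genes.

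**Figure D2:**
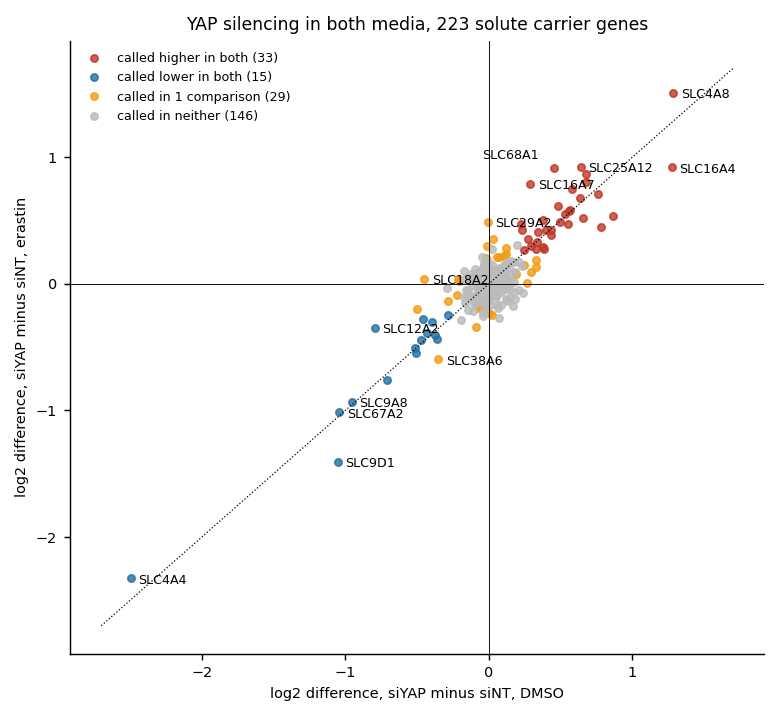
Each point is 1 of 223 solute carrier genes, with the log2 difference siYAP minus siNT in DMSO on the x axis and under erastin on the y axis, and the dotted line marks equal differences. The 33 genes called higher in both lie in the upper right and the 15 called lower in both in the lower left, with SLC4A4 at -2.49 and -2.33 and SLC4A8 at 1.29 and 1.51.

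Of all 11963 genes, 18.1% rose and 15.6% fell in DMSO, and 20% rose and 14.8% fell under erastin, and the counts for each class of carriers are to be read beside these shares and the signal of its genes. The choice of probe set also bears on calls. Of the 70 genes with several probe sets 22 were called in DMSO, and for 13 of them another probe set was called the same way, while for 9 (SLC3A1, SLC4A5, SLC16A7, SLC23A2, SLC24A1, SLC25A4, SLC33A1, SLC37A4 and SLC39A8) none was. Under erastin 22 were called, 15 with another called the same way and 7 (SLC2A5, SLC3A1, SLC6A6, SLC16A7, SLC23A2, SLC25A4 and SLC35A3) without. Conversely, 5 genes with no call had another probe set called in DMSO (SLC16A5, SLC35A3, SLC38A7, SLC39A6 and SLC48A1), as did 5 under erastin (SLC7A8, SLC16A5, SLC24A1, SLC35A2 and SLC48A1).

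Ion carriers included the largest fall. Of the 37 measured, 12 with signal at or above the median of all genes, 3 rose and 8 fell in DMSO (29.7% called), and 4 rose and 6 fell under erastin (27.0%). SLC4A4, the electrogenic sodium bicarbonate cotransporter through which proximal tubule cells return bicarbonate to the blood, read 7.05, 7.01 and 7.00 in siYAP cells with DMSO, against 9.54, 9.56 and 9.45 in siNT cells with DMSO. Under erastin its levels were 6.94, 7.61 and 6.91 in siYAP cells, against 9.44, 9.42 and 9.57 in siNT cells. Both sets of siYAP arrays lay well below their siNT arrays, and the second siYAP array with erastin was the highest of its group. The log2 difference was -2.49 ± 0.142 (SE, adjusted p = 7.92e-08, limma) in DMSO and -2.33 ± 0.142 (SE, adjusted p = 1.39e-07, limma) under erastin. SLC4A4 has 3 other probe sets, of which 2 were also called lower in both media, with differences of -1.04 to -0.03 over the 3 in DMSO.

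SLC4A8, the sodium-driven chloride bicarbonate exchanger, went the other way. It read 5.60, 5.29 and 5.27 in siYAP cells with DMSO, against 3.93, 4.22 and 4.15 in siNT cells with DMSO, and 5.20, 5.26 and 5.56 in siYAP cells with erastin, against 3.42, 3.67 and 4.38 in siNT cells with erastin. The groups did not overlap in either medium, but these are levels in the dim part of the scale, where RMA compresses differences. Its log2 difference was 1.29 ± 0.198 (SE, adjusted p = 0.000233, limma) in DMSO and 1.51 ± 0.198 (SE, adjusted p = 6.16e-05, limma) under erastin. The electroneutral cotransporter SLC4A7 rose by a log2 of 0.40 in DMSO and 0.43 under erastin, and SLC4A5 fell in DMSO (-0.28) and was not called under erastin (-0.14), with 0.07 and no call in DMSO for its second probe set. The other 5 genes of the 9 in family SLC4, the anion exchangers SLC4A2 and SLC4A3 among them, were not called, with differences of -0.12 to 0.24 in DMSO.

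In family SLC9, 2 of 5 genes fell in both media, beside 11.6% of all genes. Signal was at or above the median of all genes for 1 of the 5. SLC9A8 (NHE8), a sodium-proton exchanger of endosomes, the Golgi and the tubule's apical membrane, read 6.60, 6.53 and 6.46 in siYAP cells with DMSO, against 7.57, 7.52 and 7.35 in siNT cells with DMSO. The erastin arrays gave 6.56, 6.51 and 6.50 in siYAP cells, against 7.44, 7.44 and 7.49 in siNT cells. The 6 siYAP arrays all lay below the 6 siNT arrays, and the differences were -0.95 ± 0.0636 and -0.93 ± 0.0636 (log2, SE, adjusted p = 2.44e-07 and 3.17e-07, limma). SLC9D1, long listed as TMCO3, read 6.96, 7.96 and 6.84 in siYAP cells with DMSO, against 8.29, 8.40 and 8.23 in siNT cells with DMSO. The second of these siYAP arrays lay close under the siNT arrays and the others more than a log2 unit below. The difference was -1.05 ± 0.227 (SE, adjusted p = 0.00278, limma), and -1.41 without that array. Under erastin SLC9D1 read 7.04, 6.90 and 6.91 in siYAP cells, against 8.14, 8.30 and 8.63 in siNT cells, a difference of -1.41 ± 0.227 (SE, adjusted p = 0.000328, limma). A second probe set of SLC9D1 also fell, by 1.49 in DMSO and 1.73 under erastin. SLC9A2, SLC9A3 and SLC9A5 were not called, at -0.01 to 0.12 in DMSO.

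Family SLC12 moves chloride together with sodium or potassium. Its SLC12A2 (NKCC1), which loads cells with chloride, read 6.24, 6.25 and 6.11 in siYAP cells with DMSO, against 6.99, 7.16 and 6.84 in siNT cells with DMSO. In erastin the values were 6.37, 6.52 and 6.28 in siYAP cells, against 6.64, 6.82 and 6.76 in siNT cells. The groups were apart in both media, by less under erastin. The difference was -0.79 ± 0.0879 (SE, adjusted p = 1.46e-05, limma) in DMSO and -0.35 ± 0.0879 (SE, adjusted p = 0.00787, limma) under erastin, while the test of the gap between them did not pass (0.45 ± 0.124, SE, adjusted p = 0.422, limma). SLC12A8 rose in both media (0.43 and 0.39), and SLC12A7, the potassium-chloride cotransporter KCC4, was called under erastin (0.21) and not in DMSO (0.07). The other 5 of 8 genes were not called.

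Among the remaining ion carriers, SLC20A1 (PiT-1), a sodium-phosphate cotransporter found in most cells, fell. It read 10.94, 11.02 and 10.98 in siYAP cells with DMSO, against 11.43, 11.38 and 11.31 in siNT cells with DMSO, and 10.98, 10.93 and 10.94 in siYAP cells with erastin, against 11.34, 11.21 and 11.21 in siNT cells with erastin. The differences were -0.39 and -0.31 (adjusted p = 0.000119 and 0.000835, limma), with the groups apart in both media. SLC26A2, a sulphate transporter, fell as well (-0.36 and -0.44), and the other 4 measured genes of family SLC26 were not called. SLC24A1, a potassium-dependent sodium-calcium exchanger, fell in DMSO (-0.50) and was not called under erastin (-0.20, adjusted p = 0.0786). Its 3 other probe sets gave the opposite pattern of calls, with none in DMSO (-0.35 to 0.02) and all 3 called lower under erastin (-0.49 to -0.22). Family SLC8, the sodium-calcium exchangers, had no call among 3 genes (-0.17 to -0.03 in DMSO).

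**Figure D3:**
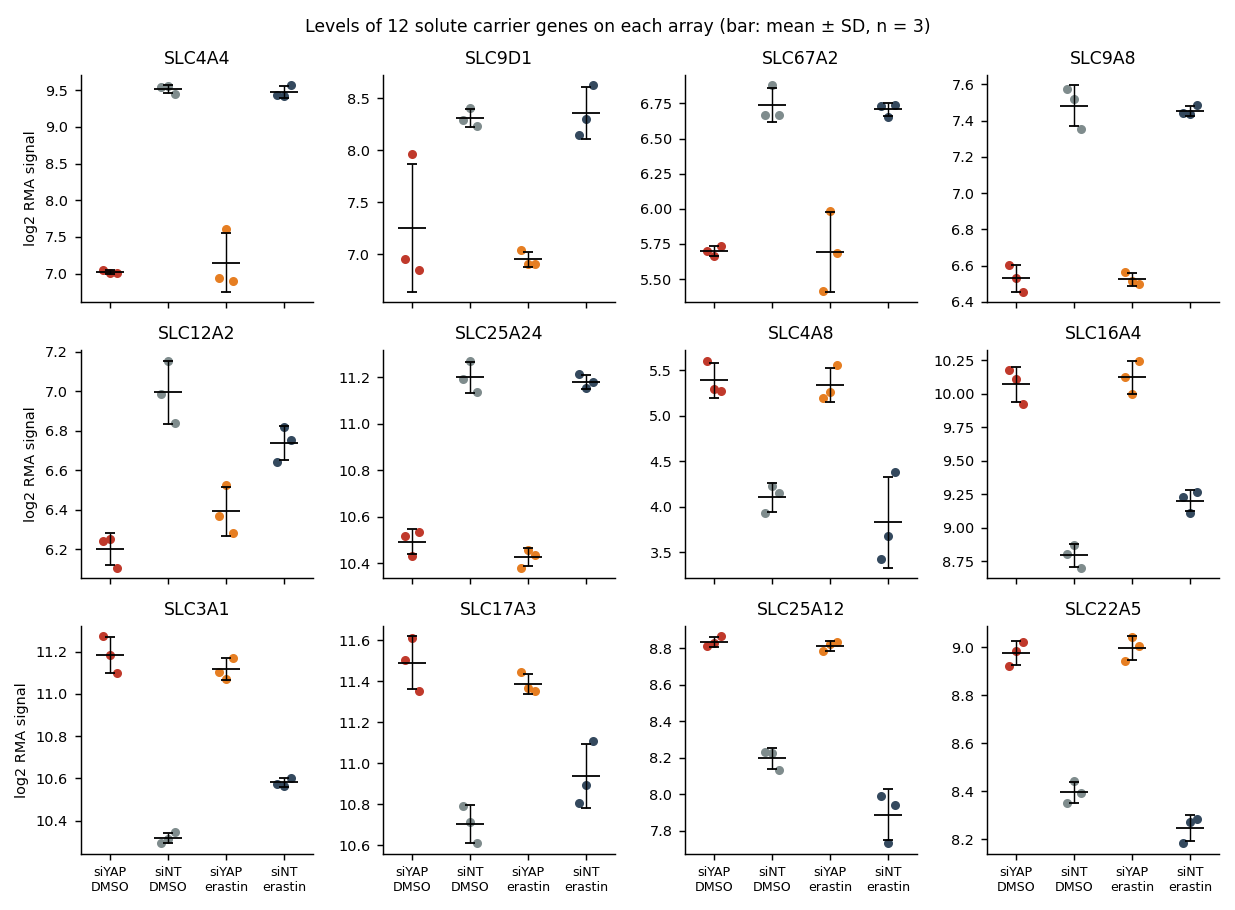
Log2 RMA levels (y axis, not starting at 0) of 12 solute carrier genes on each of 12 arrays, with siYAP left of siNT in DMSO and then under erastin, and bars for the mean ± SD of 3 arrays. In SLC4A4, SLC9A8 and SLC25A24 the 6 siYAP arrays lie below the 6 siNT arrays, and in SLC16A4, SLC3A1 and SLC25A12 above them.

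Of 51 amino acid, transmitter and peptide carriers, 7 rose and 1 fell in DMSO, and 6 rose and 2 fell under erastin (15.7% called in each). The median level in this class was 5.38 and only 11 of the 51 lay at or above the median of all genes, below which 15.6% of all genes were called in DMSO. SLC3A1 (rBAT), the heavy chain that carries the tubule's cystine and dibasic amino acid transporter to the membrane, read 11.27, 11.18 and 11.10 in siYAP cells with DMSO, against 10.29, 10.31 and 10.34 in siNT cells with DMSO. The erastin arrays gave 11.11, 11.07 and 11.17 in siYAP cells, against 10.58, 10.56 and 10.60 in siNT cells. Both siYAP sets lay above both siNT sets. The difference was 0.87 ± 0.0553 (SE, adjusted p = 1.71e-07, limma) in DMSO and 0.54 ± 0.0553 (SE, adjusted p = 8.16e-06, limma) under erastin. A second probe set of SLC3A1 showed 0.04 and 0.02 and was not called. Its light chain partner SLC7A9 read 5.03, 4.95 and 4.55 in siYAP cells with DMSO, against 4.79, 4.71 and 4.84 in siNT cells with DMSO, with overlapping groups and a difference of 0.06 (adjusted p = 0.759, limma).

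SLC17A5 (sialin), which lets sialic acid out of lysosomes, read 7.44, 7.51 and 7.38 in siYAP cells with DMSO, against 6.67, 6.77 and 6.60 in siNT cells with DMSO. The values under erastin were 7.46, 7.29 and 7.46 in siYAP cells, against 6.60, 6.63 and 6.85 in siNT cells. It rose by 0.76 and 0.71 (log2, adjusted p = 8.19e-06 and 1.50e-05, limma), with all siYAP arrays above all siNT arrays. SLC17A3 (NPT4), an organic anion and urate transporter of the tubule, read 11.50, 11.61 and 11.35 in siYAP cells with DMSO, against 10.79, 10.71 and 10.61 in siNT cells with DMSO. With erastin it read 11.44, 11.37 and 11.35 in siYAP cells, against 10.81, 10.90 and 11.11 in siNT cells. The groups were again apart, and the rises were 0.78 ± 0.0864 and 0.45 ± 0.0864 (log2, SE, adjusted p = 1.39e-05 and 0.00123, limma). SLC17A3 lies between SLC17A4 and SLC17A2 on chromosome 6, and neither neighbour was called, at 0.12 and 0.23 in DMSO and 0.06 and 0.14 under erastin. The other 6 of 8 genes of family SLC17, which include the vesicular glutamate transporters, were not called.

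The taurine transporter SLC6A6 was the only gene called among 15 of the sodium- and chloride-coupled family SLC6, at 0.55 in DMSO and 0.47 under erastin. Its probe sets disagreed in DMSO, where 1 of the 2 others was called higher and 1 lower (0.59 and -0.37). The neuronal transporters of that family, such as SLC6A3 and SLC6A4, were not called. Family SLC7, the cationic and neutral amino acid transporters, had no call among 7 genes in either medium (-0.11 to 0.17 in DMSO and -0.22 to 0.07 under erastin), although 1 of 4 other probe sets of SLC7A8 was called lower under erastin (-0.23).

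SLC38A6, of the sodium-coupled neutral amino acid family, read 7.31, 7.36 and 7.35 in siYAP cells with erastin, against 7.77, 7.73 and 8.31 in siNT cells with erastin, and 7.54, 7.46 and 7.44 in siYAP cells with DMSO, against 7.96, 7.92 and 7.61 in siNT cells with DMSO. The groups were apart in both media, but only the erastin comparison passed (-0.60, adjusted p = 0.00374, limma), with -0.35 in DMSO (adjusted p = 0.0635). The test of the gap between media did not pass (-0.25, adjusted p = 0.695, limma). The other 5 genes of the 6 in the family were not called. SLC36A1, a proton-coupled amino acid transporter of lysosomes, rose by 0.27 in DMSO and 0.35 under erastin, and SLC66A2, of the lysosomal amino acid family SLC66, by 0.29 and 0.30. SLC43A3 was called lower under erastin alone (-0.18). In families SLC1 and SLC15, the glutamate and peptide carriers, none of 3 measured genes each was called.

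SLC18A2 (VMAT2), which loads monoamines into vesicles, was the 1 amino acid and transmitter carrier to fall in DMSO. It read 5.32, 5.12 and 5.23 in siYAP cells, against 5.69, 5.84 and 5.49 in siNT cells, a difference of -0.45 (adjusted p = 0.00876, limma). Under erastin the groups overlapped and the difference was 0.04 (adjusted p = 0.849). The test of the gap, at 0.49 ± 0.163 (SE, adjusted p = 0.435, limma), did not pass. SLC18A1, the other monoamine carrier, was called higher in DMSO (0.27) and not under erastin (0.00), at a low level.

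Family SLC25, most of whose members are mitochondrial carriers, was the largest, with 7 of 28 higher and 4 lower in DMSO and 6 higher and 5 lower under erastin (39.3% called in each). Of its genes 20 had signal at or above the median of all genes, where 51.7% of all genes were called in DMSO. SLC25A12 (aralar), the aspartate-glutamate carrier of the malate-aspartate shuttle, read 8.81, 8.83 and 8.87 in siYAP cells with DMSO, against 8.23, 8.23 and 8.13 in siNT cells with DMSO. In erastin it read 8.78, 8.82 and 8.83 in siYAP cells, against 7.99, 7.73 and 7.94 in siNT cells. The siYAP arrays hardly differed between media, and all lay above the siNT arrays. The rise was 0.64 ± 0.0666 (SE, adjusted p = 8.45e-06, limma) in DMSO and 0.93 ± 0.0666 (SE, adjusted p = 4.46e-07, limma) under erastin, and a second probe set rose by 0.47 and 0.49. Its paralog SLC25A13 (citrin) was not called (-0.03 and 0.06).

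SLC25A24, a carrier that exchanges ATP-Mg for phosphate, read 10.52, 10.43 and 10.53 in siYAP cells with DMSO, against 11.19, 11.27 and 11.14 in siNT cells with DMSO. With erastin the levels were 10.38, 10.46 and 10.44 in siYAP cells, against 11.21, 11.15 and 11.18 in siNT cells. The 6 siYAP arrays formed a tight set below the siNT arrays, at differences of -0.71 ± 0.054 and -0.76 ± 0.054 (log2, SE, adjusted p = 6.60e-07 and 4.30e-07, limma). SLC25A17, which sits in peroxisomes and not in mitochondria and carries cofactors such as CoA, read 7.72, 7.71 and 7.78 in siYAP cells with DMSO, against 8.28, 8.33 and 8.14 in siNT cells with DMSO. Under erastin it read 7.61, 7.68 and 7.82 in siYAP cells, against 8.08, 8.03 and 8.53 in siNT cells. It fell by 0.51 in each medium (adjusted p = 0.00334 and 0.00351, limma), and a second probe set fell by 0.95 and 0.97.

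Other SLC25 genes were also called in both media. The pyrimidine nucleotide carrier SLC25A36 rose by 0.53 and 0.55, the folate and FAD carrier SLC25A32 by 0.50 and 0.49, SLC25A44 by 0.23 and 0.43 and the ADP/ATP carrier SLC25A4 by 0.24 and 0.26. The dicarboxylate carrier SLC25A10 fell by 0.43 and 0.39. The citrate carrier SLC25A1 and SLC25A46 rose in DMSO (0.33 and 0.24) and the ornithine carrier SLC25A15 fell there (-0.22), each without a call under erastin. The glutamate carrier SLC25A22 rose (0.24) and the glycine carrier SLC25A38 and the phosphate carrier SLC25A3 fell (-0.24 and -0.14) under erastin without a call in DMSO. The major ADP/ATP carrier SLC25A5 was not called (-0.04 and -0.04).

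Of 27 organic acid, organic ion and lipid carriers, 5 rose and 0 fell in DMSO (18.5% called), and 7 rose and 1 fell under erastin (29.6%). Only 5 of the 27 had signal at or above the median of all genes. Below that level 15.6% of all genes were called in DMSO and 16.5% under erastin. SLC16A4 (MCT5), an orphan of the monocarboxylate family, read 10.18, 10.11 and 9.92 in siYAP cells with DMSO, against 8.80, 8.87 and 8.70 in siNT cells with DMSO. Under erastin it read 10.13, 10.00 and 10.24 in siYAP cells, against 9.23, 9.11 and 9.27 in siNT cells. All siYAP arrays lay above all siNT arrays. The rise was 1.28 ± 0.0833 (SE, adjusted p = 2.03e-07, limma) in DMSO and 0.92 ± 0.0833 (SE, adjusted p = 2.69e-06, limma) under erastin.

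SLC16A7 (MCT2), a high-affinity pyruvate and lactate transporter, read 7.31, 7.11 and 7.20 in siYAP cells with DMSO, against 6.71, 6.97 and 7.06 in siNT cells with DMSO, and 7.39, 7.51 and 7.67 in siYAP cells with erastin, against 6.69, 6.63 and 6.87 in siNT cells with erastin. The groups touched nearly in DMSO (0.29, adjusted p = 0.0451, limma) and were well apart under erastin (0.79, adjusted p = 5.52e-05, limma). The gap of 0.50 between media did not pass its test (adjusted p = 0.422, limma), and a second SLC16A7 probe set was not called (0.05 and 0.20). The other 3 of 5 genes of family SLC16 were not called, but for SLC16A5 both other probe sets were called higher under erastin (0.38 and 0.39) and 1 of them in DMSO.

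SLC22A5 (OCTN2), the carnitine transporter, read 8.92, 8.98 and 9.02 in siYAP cells with DMSO, against 8.35, 8.44 and 8.39 in siNT cells with DMSO. In erastin its levels were 8.94, 9.04 and 9.00 in siYAP cells, against 8.18, 8.27 and 8.28 in siNT cells. It rose by 0.58 ± 0.054 and 0.75 ± 0.054 (log2, SE, adjusted p = 3.15e-06 and 4.46e-07, limma), with no overlap of arrays. Its neighbour on chromosome 5, the ergothioneine transporter SLC22A4 (OCTN1), read 8.34, 8.40 and 8.31 in siYAP cells with DMSO, against 7.97, 8.07 and 7.88 in siNT cells with DMSO, and rose by 0.38 in DMSO and 0.50 under erastin. SLC22A2 was called under erastin alone (0.21), and the other 7 of 10 genes of family SLC22, the renal anion transporters SLC22A6 and SLC22A8 among them, were not called.

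SLC27A2 (FATP2), which activates and takes up long-chain fatty acids, read 5.08, 4.99 and 4.81 in siYAP cells with DMSO, against 4.10, 4.47 and 4.27 in siNT cells with DMSO. With erastin it read 5.30, 5.22 and 5.09 in siYAP cells, against 4.15, 4.32 and 4.55 in siNT cells. The groups did not overlap, though the levels are dim. It rose by 0.68 and 0.86 (log2, adjusted p = 0.000546 and 7.76e-05, limma), and a second probe set by 0.79 and 0.63. Under erastin SLC27A5 rose (0.28) and SLC27A6 fell (-0.20), neither with a call in DMSO. Families SLC10 and SLC13, the bile acid and the sulphate and carboxylate carriers, had no call among 3 and 4 genes.

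Of 36 sugar and nucleotide sugar carriers, 6 rose and 4 fell in DMSO (27.8% called), and 7 rose and 6 fell under erastin (36.1%). These shares stand beside 33.7% and 34.9% of all genes, and 19 of the 36 had signal at or above the median of all genes. Of 15 genes of family SLC35, 5 rose and 1 fell in DMSO. SLC35G2 read 9.57, 9.68 and 9.72 in siYAP cells with DMSO, against 9.05, 9.00 and 9.01 in siNT cells with DMSO, and 9.66, 9.59 and 9.57 in siYAP cells with erastin, against 8.85, 8.95 and 8.99 in siNT cells with erastin. Its rise of 0.64 and 0.68 (adjusted p = 2.74e-06 and 1.85e-06, limma) came with no overlap. SLC35D2 rose by 0.57 and 0.59, SLC35F5 by 0.56 and 0.58, the CMP-sialic acid transporter SLC35A1 by 0.34 and 0.33, and the GDP-fucose transporter SLC35C1 by 0.33 in DMSO without a call under erastin (0.19). SLC35D1, which brings UDP-glucuronate into the endoplasmic reticulum, fell by 0.46 in DMSO and 0.28 under erastin. SLC35A3 was called lower under erastin (-0.23) while a second probe set of the gene was called higher (0.85), so its direction is unsettled.

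SLC5A3, the sodium-coupled importer of the osmolyte myo-inositol, read 8.89, 8.85 and 9.06 in siYAP cells with DMSO, against 9.44, 9.51 and 9.38 in siNT cells with DMSO. Under erastin it read 8.76, 8.98 and 8.76 in siYAP cells, against 9.37, 9.16 and 9.62 in siNT cells. It fell by 0.51 and 0.55 (log2, adjusted p = 0.00222 and 0.00132, limma), with no overlap in either medium. SLC5A6, a transporter of biotin and pantothenate, fell in DMSO (-0.21), and SLC5A12 was called lower under erastin (-0.19). The glucose transporters SLC5A1 and SLC5A2 were not called, nor were the other 3 of the 8 genes of the family. In family SLC2, SLC2A11 rose in both media (0.38 and 0.29), while under erastin SLC2A6 rose (0.35) and the fructose transporter SLC2A5 fell (-0.34). The other 6 of 9 were not called. SLC37A4, the glucose-6-phosphate transporter of the endoplasmic reticulum, fell in both (-0.28 and -0.25).

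Of 20 metal and heme carriers, 5 rose and 0 fell in each medium (25.0% called), beside 33.7% and 34.9% of all genes. Signal was at or above the median of all genes for 12 of the 20. The zinc exporter SLC30A1 read 11.32, 11.35 and 11.38 in siYAP cells with DMSO, against 10.99, 11.10 and 10.93 in siNT cells with DMSO, and 11.33, 11.33 and 11.29 in siYAP cells with erastin, against 10.92, 10.81 and 10.98 in siNT cells with erastin. It rose by 0.34 and 0.41 (log2, adjusted p = 0.000627 and 0.000142, limma), and all siYAP arrays lay above all siNT arrays. SLC30A9 rose by 0.38 and 0.28, and the other 5 of 7 genes of family SLC30 were not called. Among 7 zinc importers of family SLC39, SLC39A4 rose in both media (0.23 and 0.48) and SLC39A8 in DMSO alone (0.19). SLC41A3, a magnesium transporter family member, rose by 0.43 and 0.42. The copper importer SLC31A1 rose under erastin (0.30, adjusted p = 0.00676, limma) with -0.01 in DMSO. The heme transporter SLC48A1 was not called, though 1 of its 2 other probe sets was in each medium.

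Vitamin, nucleoside, choline and urea carriers had 2 of 18 higher and 3 lower in DMSO, and 3 higher and 2 lower under erastin. That is 27.8% called in each medium, beside 33.7% and 34.9% of all genes. Signal was at or above the median of all genes for 7 of the 18. SLC29A3 (ENT3), which lets nucleosides out of lysosomes, read 7.15, 7.17 and 7.06 in siYAP cells with DMSO, against 6.44, 6.31 and 6.68 in siNT cells with DMSO. With erastin it read 7.19, 7.01 and 7.15 in siYAP cells, against 6.50, 6.72 and 6.57 in siNT cells. It rose by 0.65 and 0.52 (log2, adjusted p = 0.00011 and 0.000654, limma), without overlap. The equilibrative transporter SLC29A2 (ENT2) was called higher under erastin (0.49, adjusted p = 0.00334, limma) and showed 0.00 in DMSO (adjusted p = 0.985), with a gap of 0.49 that did not pass its test (adjusted p = 0.422, limma). SLC29A1 (ENT1) was not called, nor were the 3 sodium-coupled nucleoside carriers of family SLC28.

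SLC33A1, the acetyl-CoA transporter of the endoplasmic reticulum, read 9.38, 9.34 and 9.35 in siYAP cells with DMSO, against 9.84, 9.83 and 9.83 in siNT cells with DMSO, and 9.39, 9.33 and 9.35 in siYAP cells with erastin, against 9.80, 9.80 and 9.80 in siNT cells with erastin. The arrays of each group nearly coincided, and the difference of -0.48 and -0.44 (adjusted p = 3.38e-06 and 6.52e-06, limma) was small but far above their spread. The thiamine transporter SLC19A2 fell by 0.38 and 0.40, and the folate transporter SLC19A1 was not called. SLC23A2, a vitamin C transporter, rose by 0.33 and 0.27, though its other probe sets were not called. SLC46A3 fell in DMSO alone (-0.22).

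The last 6 genes have recent SLC numbers, and 1 of them is the long non-coding RNA SLC67A1-AS. Of the 6, 4 rose and 1 fell in each medium, and 3 had signal at or above the median of all genes. SLC67A2, long listed as MFSD9, read 5.70, 5.67 and 5.73 in siYAP cells with DMSO, against 6.67, 6.88 and 6.67 in siNT cells with DMSO. Under erastin it read 5.42, 5.99 and 5.68 in siYAP cells, against 6.73, 6.66 and 6.74 in siNT cells. It fell by 1.04 and 1.01 (log2, adjusted p = 1.20e-05 and 1.53e-05, limma) with no overlap, and a second probe set fell by 1.27 and 0.96. SLC61A1 (0.29, in DMSO) and SLC75A1 (0.22, under erastin) were called in 1 medium each. The neighbour of SLC67A2 on chromosome 2, SLC9A2, was not called (0.12 and 0.14).

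SLC67A1, long listed as SLC22A18 in an imprinted region of chromosome 11, read 8.62, 8.75 and 8.50 in siYAP cells with DMSO, against 7.82, 8.03 and 7.98 in siNT cells with DMSO, and 8.85, 8.78 and 8.83 in siYAP cells with erastin, against 7.99, 8.08 and 7.97 in siNT cells with erastin. It rose by 0.68 and 0.81 (adjusted p = 1.05e-05 and 2.58e-06, limma). The long non-coding RNA SLC67A1-AS, on the opposite strand, rose beside it by 0.49 and 0.62. SLC68A1 read 6.47, 6.28 and 6.31 in siYAP cells with DMSO, against 5.90, 5.92 and 5.89 in siNT cells with DMSO. In erastin it read 6.59, 6.65 and 6.66 in siYAP cells, against 5.60, 5.67 and 5.89 in siNT cells. It rose by 0.46 and 0.92 (log2, adjusted p = 0.000392 and 1.18e-06, limma). The gap of 0.46 ± 0.106 between media had an adjusted p of 0.354 (SE, limma) and did not pass.

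**Figure D4:**
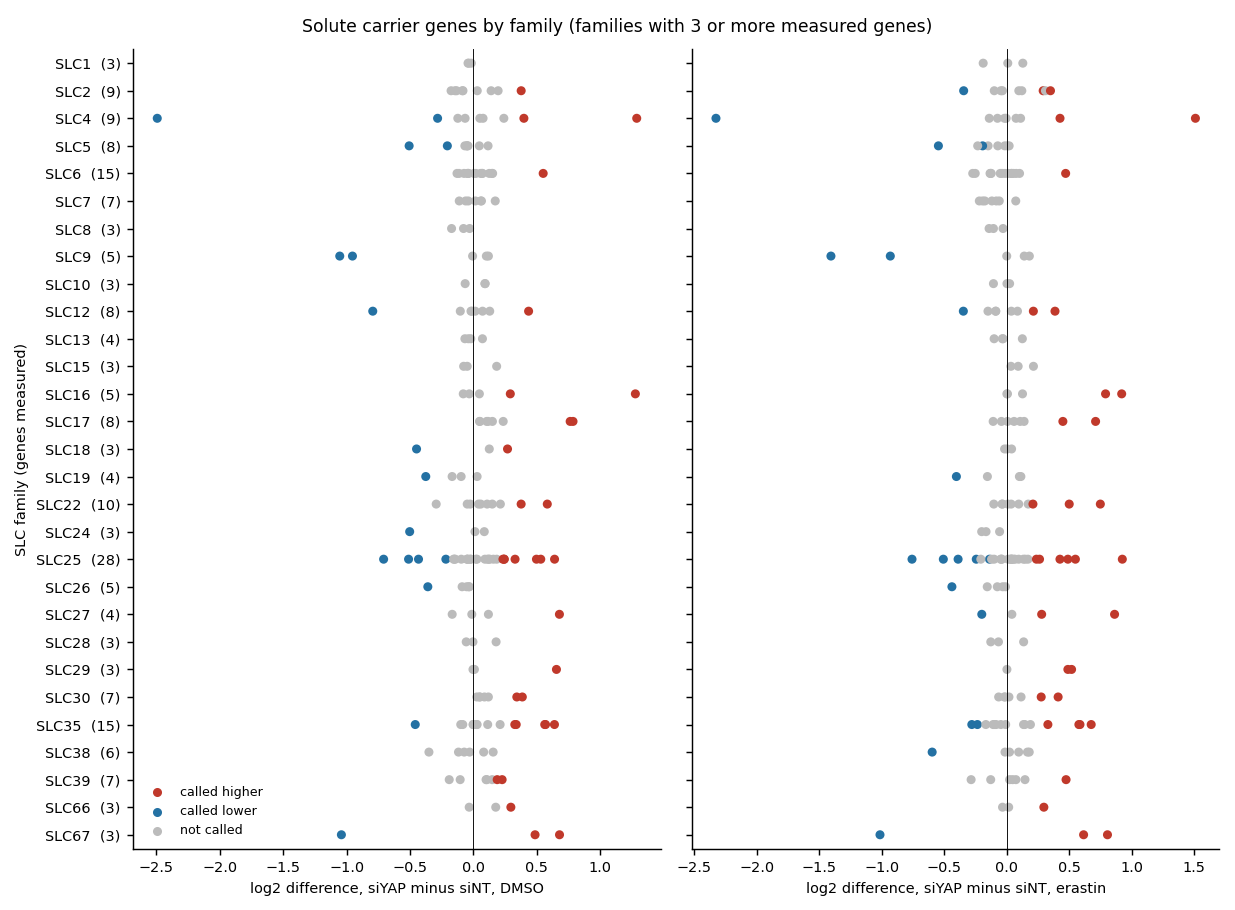
Each point is 1 solute carrier gene, placed by its log2 difference siYAP minus siNT (x axis, DMSO left and erastin right) in the row of its family (y axis, 29 families with 3 or more measured genes), red where called higher, blue where called lower and grey where not called. Family SLC4 spreads widest, from -2.49 to 1.29 in DMSO, the 2 called genes of SLC9 lie left, and SLC1, SLC7, SLC8, SLC10, SLC13, SLC15 and SLC28 have no coloured point.

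Erastin itself, at 7 hours, moved few solute carriers. The question is how treated cells of one siRNA differ from untreated cells of the same siRNA. In siNT cells 2 of 223 genes were called, both higher, beside 0.752% of all genes, 0.485% higher and 0.267% lower. In siYAP cells 0 of 223 were called with limma, beside 0.334% of all genes. At an unadjusted p under 0.05 the counts were 24 in siNT cells and 14 in siYAP cells, beside 10.6% and 10.7% of all genes. Of the 15 solute carriers that the rule leaves out, 3 were called in siYAP cells and 4 in siNT cells, all higher.

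SLC16A4 was 1 of the 2, with 9.23, 9.11 and 9.27 in siNT cells with erastin, against 8.80, 8.87 and 8.70 in siNT cells with DMSO. The treated arrays all lay higher, by 0.41 ± 0.0833 (log2, SE, adjusted p = 0.047, limma). The other was SLC34A2 (NaPi-IIb), an apical sodium-phosphate cotransporter, with 10.18, 10.14 and 10.13 in siNT cells with erastin, against 9.88, 9.91 and 9.66 in siNT cells with DMSO, a difference of 0.33 ± 0.0654 (SE, adjusted p = 0.0427, limma). In siYAP cells the differences were 0.05 and 0.09, and neither was called. Both adjusted p-values stand close to the threshold, and leaving out any 1 array lost SLC34A2 and, but for the third siYAP array with DMSO, SLC16A4 as well.

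The lowest adjusted p in siYAP cells belonged to the copper importer SLC31A1, with 8.92, 8.99 and 9.12 in siYAP cells with erastin, against 8.69, 8.55 and 8.68 in siYAP cells with DMSO. The groups did not overlap, but the difference of 0.37 ± 0.0737 did not pass (SE, adjusted p = 0.0737, limma). In siNT cells it was 0.06. SLC25A12 (-0.31, adjusted p = 0.0622) and SLC3A1 (0.26, adjusted p = 0.0551) came near the threshold in siNT cells.

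Whether the erastin response differed between siYAP and siNT cells was tested as an interaction, and 0 of 223 solute carriers and 0% of all genes passed with limma. At an unadjusted p under 0.05 there were 23, beside 9.86% of all genes. The lowest adjusted p was 0.354, for SLC68A1 (0.46 ± 0.106, SE) and SLC3A1 (-0.33 ± 0.0782, SE). The genes called after silencing in 1 medium alone are therefore not shown to depend on the medium. Silencing and erastin comparisons share arrays, so their values are given side by side and not set against each other.

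Other transport genes outside the SLC symbols were read from a list of 25, of which 16 were measured. In DMSO 6 rose and 2 fell, and under erastin 7 rose and 2 fell, beside 33.7% and 34.9% of all genes called, with 0 called in either erastin comparison. Their median level was 9.67, and of all genes with a level at or above the median 51.7% were called in DMSO and 53.3% under erastin. LETM1, an ion exchanger of the mitochondrial inner membrane, fell by 1.02 in DMSO and 0.63 under erastin. ATP1B1, the beta subunit of the sodium pump, rose by 0.51 and 0.44, the mitochondrial pyruvate carrier subunit MPC1 by 0.48 and 0.58, and SFXN3 by 0.43 and 0.59.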

How the data were processed

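Total RNA of RCC4 cells was measured on 12 one-colour arrays. Per the submitters' processing notes, the authors used RMA in Affymetrix Expression Console, and what they deposited is in log2 units. Neither software versions nor the kind of array nor scan times are given in the sources used here, and no batch was tested. Since RMA equalises arrays, it hides changes in total RNA per cell. Of 22277 probe sets, 62 were controls, and the platform annotation gave 1 gene symbol to 19065, several to 1043 and none to 2107. RefSeq matched 19053 by gene identifier. Each of 11963 genes was read from its probe set with the highest mean over the 12 arrays, and 70 of the 223 solute carriers had more than 1. A further 9 solute carrier symbols stand only on probe sets shared with other genes and were not used.

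Group means were estimated from the 12 arrays together with limma 3.58.1 in R 4.3.3 (8 residual and 4.17 prior degrees of freedom). Benjamini-Hochberg adjustment ran over all 11963 genes, and adjusted p under 0.05 was a call. Nothing says how separately the triplicates were cultured, so p-values measure only the spread between these samples. Precision is limited by the number of arrays, with a median standard error of 0.078 for a log2 difference. Simulated data for silencing in DMSO had 200 of 11963 genes changed. There limma called 28% of genes changed by 0.25 (log2), 82% at 0.5 and 100% at 1 and 2. Of its calls 2.52% were false. In the measured data 33.7% of all genes were called in that comparison, and the adjusted threshold depends on this share. The simulated shares therefore do not give the sensitivity of the measured comparison. Replicate numbers come from the sample titles. Same-numbered arrays of different groups correlated at -0.42 to 0.19 in their deviations from the group means (18 pairs). Arrays with different numbers correlated at -0.22 to 0.34 (36 pairs). These values give no sign that the numbers pair the arrays, but deviations from means of 3 arrays cannot exclude it.

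The genes and lists were chosen with earlier results of these data known. Genes given with their arrays include the 8 largest rises and 8 largest falls of each pairwise comparison. For these the gene was called and the groups' arrays stood apart. Other genes were named, or given with their arrays, outside this rule and after their values were seen. Those given with their arrays were SLC7A9, SLC18A2, SLC20A1, SLC22A4, SLC30A1, SLC31A1, SLC33A1 and SLC35G2. The settings tried besides were the 6 compared arrays alone, a block for the replicate number, median centring and quantile normalization. Also tried were leaving out the dimmest 30% of probe sets, averaging the probe sets of a gene and a trended and robust variance. Each array was left out in turn. The zero transformation of the design text subtracts the control mean. It was used with a limit added here, all 3 arrays beyond 1 log2 unit from that mean. Reading every probe set on its own was added after seeing the data.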

Additional observations from a re-analysis of the deposited data

How the results depend on the processing

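Calls after silencing varied little in number except under the zero transformation with its added limit. That limit asks all 3 arrays to lie beyond 1 log2 unit of the control mean and is not part of the design text. It left 4 solute carriers in DMSO (2 higher, 2 lower), 3 under erastin (1 higher, 2 lower) and 0 with erastin in siNT cells. Under all other settings 52 to 62 genes were called in DMSO, beside 60, and 54 to 67 under erastin, beside 65, the lowest values in both cases coming from leaving out 1 array. The replicate block gave 57 and 62, and whether the replicate numbers pair the arrays is not known. For erastin in siNT cells, beside 2 called, the count was 0 with only the 6 arrays compared, 0 with the replicate block, 0 with every probe set on its own, 4 with quantile normalization, 4 without the dimmest 30% of probe sets and 4 with a trended and robust variance, and 0 to 1 when any array was left out. The 4 in those last 3 settings were SLC3A1, SLC16A4, SLC25A12 and SLC34A2. For erastin in siYAP cells, beside 0 called, 1 gene (SLC31A1) was called without the dimmest 30% of probe sets and 1 (SLC31A1) with a trended and robust variance. The interaction gave 0 under every setting it was fitted with. Of 642 repeats for named genes 615 kept their direction and call, and the other 27 were SLC16A4 and SLC34A2 with erastin in siNT cells, whose adjusted p reached 0.169 and 0.310. None reversed. The 642 leave out the zero transformation and the reading of every probe set on its own. Under the zero transformation with its limit, SLC4A4, SLC4A8, SLC16A4 and SLC67A2 alone remained in DMSO. Under erastin SLC4A4, SLC4A8 and SLC9D1 alone remained. Signal limits the dim genes: SLC4A8, SLC27A2, SLC4A5 and SLC18A1 lay in the lower part of the scale, where RMA compresses differences.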
